A study of Mus musculus with 16 samples.

Results

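The genes that encode histone-modifying enzymes and chromatin remodelers were examined in bulk RNA-seq of 3 hippocampal subregions of mice trained or not trained in active place avoidance. Members were chosen by symbol: the Kat, Kmt, Kdm, Setd, Hdac, Chd, Arid and Smarca to Smarce series, with Crebbp and Ep300 and without Kdm5d. This gave 87 of the 24972 genes listed. Classes were set by symbol alone, so a class name does not show that each protein has that activity on histones. Writers, named for enzymes that add acetyl or methyl groups to histones, numbered 26 (10 acetyltransferases and 16 methyltransferases). Erasers, named for enzymes that remove these groups, numbered 28 (11 deacetylases and 17 demethylases). The 33 genes of the ARID, CHD and SMARC series (10, 9 and 14) are counted as remodelers by their symbols. The CHD and SMARC ATPases move or evict nucleosomes, Arid1a, Arid1b and Arid2 are subunits of SWI/SNF complexes, and the Arid3, Arid4 and Arid5 genes encode DNA-binding or corepressor proteins rather than remodelers.

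All mice carried ArcCreERT2::eYFPflx on a C57BL/6 background and were 3 to 4 months old. In this line the Arc promoter drives a tamoxifen-dependent Cre that switches on a floxed eYFP reporter, and the libraries were made from whole pieces of tissue rather than from labelled cells. Trained mice learned to avoid a shock zone on a rotating arena, and untrained mice spent the same sessions there with the shock off. A retention test followed 24 h after training, and dorsal tissue was taken 60 min later. Dentate gyrus (DG), CA3 and CA1 were microdissected and the pieces of each animal pooled by subregion. CA1 had 3 trained and 3 untrained libraries, CA3 had 3 and 2, and DG had 3 and 2. The 16 libraries came from 3 trained and 3 untrained animals.

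The deposited values are normalized estimated counts, called values below, and their sums per library lay between 7607326 and 7984931. The reads behind each library are unknown, so no counting interval is given. Several features of the libraries coincide with training. Xist, the transcript of the inactive X chromosome, lay between 7601 and 19592 in the 9 trained libraries and at no more than 52.4 in 6 of the 7 untrained ones. The exception was CA3 untrained replicate 1, with Xist at 10587 and the Y-linked Ddx3y at 201, whereas the CA1 and DG libraries of that animal number had Xist at 26.1 and 25.5. Fits by animal, and those that leave out untrained replicate 1, therefore join libraries that differ in Xist. DG trained replicate 3 held both Xist (7601) and Ddx3y (255). Ddx3y was also at 92.9 in CA3 trained replicate 3, 101 in CA1 trained replicate 3 and 70.9 in CA1 trained replicate 1, against 1.66 to 12.9 in the other 5 trained libraries. The study's methods place male and female mice in both the trained and the untrained group. The libraries did not show this mix, with Xist high in all 9 trained libraries and low in all 3 untrained CA1 libraries. Labels were used as deposited. A score built from Xist and 4 Y-linked transcripts correlated with training at a Pearson r of -0.984 in CA1 and -0.794 in CA3, so that the parts of sex-linked expression and training cannot be told apart in these comparisons. The subregion labels were only partly visible in marker genes. Prox1, which defines DG granule cells, had a value of 3292 to 4183 in DG, 3052 to 3861 in CA1 and 2690 to 4786 in CA3. None of the 8 DG granule markers passed the limma test between subregions. Of the 7 CA1 markers, 5 passed as higher in CA1 than in CA3, and 1 as higher in CA1 than in DG. The number of genes listed at 0 also varied with the groups: 8323 to 9759 in trained CA1 against 3124 to 5425 in untrained CA1, and 3479 to 5944 in trained DG against 7567 and 8636 in untrained DG. In bulk tissue, fewer cells of a type and less RNA per cell cannot be told apart.

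Acetylation of histone tails by CREBBP, EP300 and the KAT enzymes opens chromatin and marks active enhancers and promoters, and the HDAC enzymes reverse it. KMT2 enzymes methylate lysine residues that mark promoters and enhancers, SETD2 marks transcribed gene bodies, and KDM enzymes take methyl groups off. CHD proteins and the SWI/SNF complex, built from SMARC and ARID subunits around an ATPase, use ATP to reposition nucleosomes. In the hippocampus these enzymes are studied because memory consolidation needs new transcription, and because deacetylase inhibitors and loss of Crebbp alter memory in mice.

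Nearly all of these genes were expressed. Together they made up 0.926% to 1.05% of each library's summed values. Levels per kilobase used the unweighted mean length of a gene's annotated transcripts, so their order depends on which transcripts are annotated. On this scale, the highest level over all libraries belonged to Chd3, an ATPase of the NuRD complex (1016 per kilobase). Smarca2, a SWI/SNF ATPase, followed with a level of 976, and Smarcc2, a core scaffold of that complex, with 674. At these lengths, their ranges over the 16 libraries did not meet those of the rest. The lowest Smarcc2 level was 616 per kilobase, while Chd4, next in order at 393, reached at most 433. The ranges leave out any error in the lengths, so they do not settle the order between genes. The ranges of Chd3 (907 to 1106) and Smarca2 (861 to 1083) overlapped. Among acetyltransferases, Crebbp had a level of 235 per kilobase, Ep300 of 146 and Kat2b of 30.6. Among deacetylases, Hdac11 was highest with a level of 286, followed by Hdac2 (201), Hdac5 (193) and Hdac3 (178). The lowest members were Arid3c (0.686), Kdm4d (3.57) and Smarca5-ps (4.41), a processed pseudogene whose reads can be confused with those of its parent Smarca5. Arid3c never exceeded a value of 3.07 and was not tested. Levels varied little between libraries. Among the 82 members with a mean value of at least 50, the highest library exceeded the lowest by a median of 1.36-fold, and 80 members stayed under a factor of 2. The coefficient of variation within a group had a median over the tested members of 5.56% to 7.08%.

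Promoter sequences of 66 of the 87 members could be matched by gene to RefSeq windows on GRCm38.p6. The 250 bases before the transcription start are shown for 6 members whose levels differed between trained and untrained mice when the subregions were combined, 3 higher and 3 lower. They are written 5′ to 3′ on the gene's strand, with 3 motifs in capitals where they occur on either strand: TGACG, the core of the cAMP response element bound by CREB, the CCAAT box, and GGGCGG, the GC box bound by SP factors. The windows are chr11:102230173-102230422 for Hdac5 (minus strand), chrX:18162325-18162574 for Kdm6a, chr4:152338401-152338650 for Chd5, chr9:44881290-44881539 for Kmt2a (minus strand), chr9:110532347-110532596 for Setd2 and chr10:68278727-68278976 for Arid5b (minus strand).
Hdac5: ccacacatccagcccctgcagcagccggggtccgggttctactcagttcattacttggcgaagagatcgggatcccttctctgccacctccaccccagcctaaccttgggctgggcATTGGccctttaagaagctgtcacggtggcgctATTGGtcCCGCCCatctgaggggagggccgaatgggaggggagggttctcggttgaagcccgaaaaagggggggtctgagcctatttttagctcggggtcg
Kdm6a: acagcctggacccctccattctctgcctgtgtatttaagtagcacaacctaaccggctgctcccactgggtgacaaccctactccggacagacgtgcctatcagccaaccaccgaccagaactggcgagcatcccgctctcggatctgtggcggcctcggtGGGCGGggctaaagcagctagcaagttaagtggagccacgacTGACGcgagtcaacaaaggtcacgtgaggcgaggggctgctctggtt
Chd5: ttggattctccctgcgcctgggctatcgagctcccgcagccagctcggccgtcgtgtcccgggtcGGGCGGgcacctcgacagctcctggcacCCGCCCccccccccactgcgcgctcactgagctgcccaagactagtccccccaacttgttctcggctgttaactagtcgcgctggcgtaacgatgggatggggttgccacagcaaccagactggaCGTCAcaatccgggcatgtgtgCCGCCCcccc
Kmt2a: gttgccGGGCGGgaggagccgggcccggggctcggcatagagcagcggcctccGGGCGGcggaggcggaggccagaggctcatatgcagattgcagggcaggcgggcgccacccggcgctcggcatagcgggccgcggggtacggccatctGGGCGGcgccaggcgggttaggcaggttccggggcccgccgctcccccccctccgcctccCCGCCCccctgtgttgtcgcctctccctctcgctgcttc
Setd2: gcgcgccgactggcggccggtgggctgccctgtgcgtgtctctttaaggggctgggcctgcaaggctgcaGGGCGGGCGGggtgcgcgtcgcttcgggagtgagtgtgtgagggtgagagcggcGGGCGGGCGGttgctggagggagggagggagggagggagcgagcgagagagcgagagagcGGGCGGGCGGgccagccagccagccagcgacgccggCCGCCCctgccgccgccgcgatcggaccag
Arid5b: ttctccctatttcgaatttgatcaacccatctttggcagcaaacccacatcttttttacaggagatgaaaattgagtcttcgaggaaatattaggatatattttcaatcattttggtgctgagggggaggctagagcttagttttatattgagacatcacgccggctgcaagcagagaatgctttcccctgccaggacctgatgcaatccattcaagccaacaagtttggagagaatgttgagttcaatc
The higher members Hdac5, Kdm6a and Chd5 held 12, 15 and 21 CpG dinucleotides in these windows, and the lower members Kmt2a, Setd2 and Arid5b held 29, 31 and 4. TGACG occurred once in Kdm6a and once in Chd5. GC boxes, counted with overlap, numbered 7 in Setd2, 4 in Kmt2a, 3 in Chd5 and 1 each in Hdac5 and Kdm6a, with none in Arid5b. Across the 90 windows of the matched members, 65.6% held a GC box, against 32.7% of the 32851 windows of all genes. The share with TGACG was 26.7% of the members' windows and 17.8% of all windows. CCAAT was found in 36.7% and 33.8%. The full palindrome TGACGTCA occurred in none of the 90 windows and in 1.55% of all windows. The median window of the members had 20 CpG dinucleotides, against 6 for all genes. These matches describe the letters of the windows and not bound sites.

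The comparison of trained with untrained mice over all subregions asked which genes differed a day after avoidance learning. Here 16 of the 86 members tested passed the limma test at an adjusted p-value under 0.05, 4 higher and 12 lower in trained mice. The background was 10.3% of all 14673 genes tested, with 6.28% higher and 4.06% lower. Of the members, 61 had lower and 25 had higher values in trained mice, with a median log2 difference of -0.07, against -0.01 over all genes. For 5 members, the higher Chd5 and the lower Kat7, Setd2, Kdm2a and Chd1, trained and untrained libraries did not overlap within any subregion, which was so for 2.92% of all genes. Markers of cell types also moved in this comparison. Of the 7 CA3 pyramidal markers 5 passed as higher in trained mice (median log2 difference 0.45), with a summed value of 3743 to 4624 in trained and 2636 to 4044 in untrained libraries, while 6 of 7 CA1 pyramidal markers had lower values (median -0.34; 1 passed, as higher). Of the 4 immature neuron markers 3 passed as lower, of the 7 astrocyte markers 2 as lower, and of the 4 oligodendrocyte precursor markers 2 as higher. All 4 leptomeningeal markers (1 called, median -0.37) and all 5 choroid plexus markers (0 called, median -0.47) had lower values, and 1 of the 8 DG granule markers passed as lower. Their part in the members' differences was not tested. Writers gave 7 lower and 0 higher calls of 26, erasers 3 higher and 2 lower of 28, and remodelers 1 higher and 3 lower of 32. The values by family are shown for each comparison in the plot of log2 differences.

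**Figure D1:**
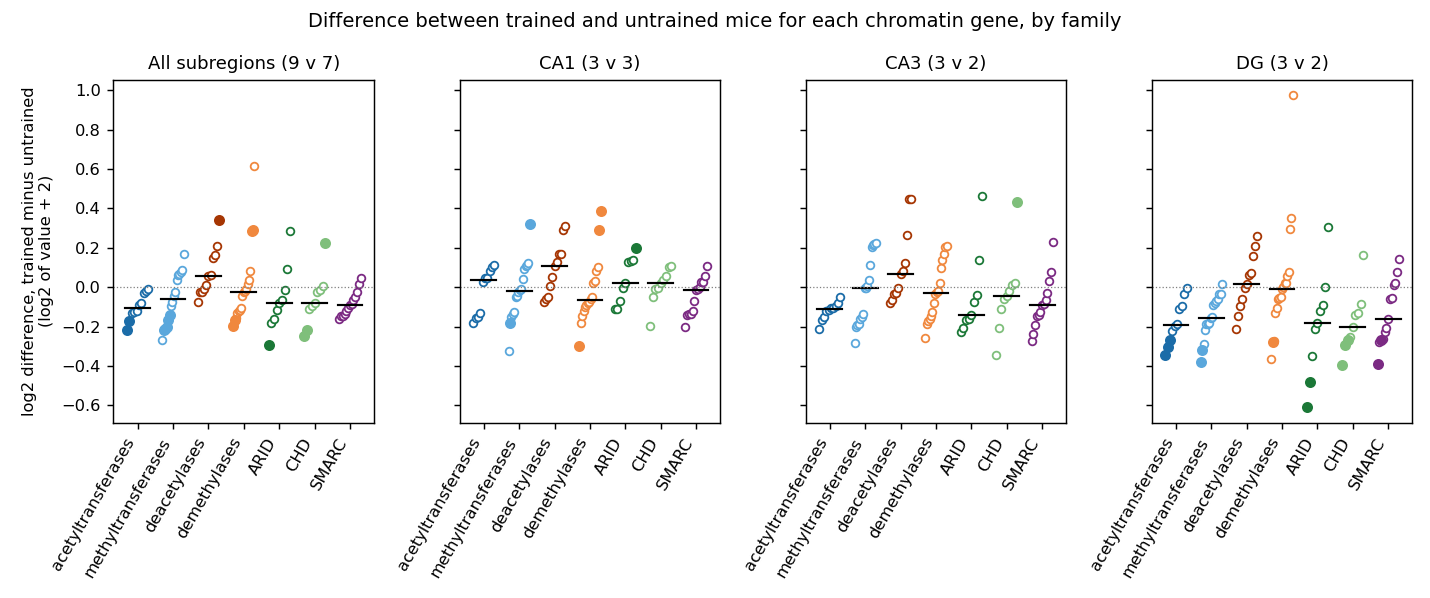
Log2 differences (trained minus untrained, on log2 of value + 2, y axis) of the tested members by family (x axis) in each comparison, with the libraries of trained v untrained mice in brackets; each point is 1 gene, filled points passed the limma test, bars are medians, and the pseudogene Smarca5-ps is left out. In DG all 10 acetyltransferases lie below 0 and the filled points are all below 0, while the deacetylase medians lie at or above 0 in every comparison; the open points near 0.62 and 0.98 are the low-value gene Kdm4d.

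Among the writers, all 10 acetyltransferases had lower values in trained mice and 2 passed the test. Kat6a, a MYST acetyltransferase, had values of 1124 to 1383 with a median of 1244 in the 9 trained libraries, and 1372 to 1578 with a median of 1444 in the 7 untrained ones. The groups overlapped at 1372 to 1383, and the log2 difference was -0.22 ± 0.05 (SE, adjusted p = 0.00409). Kat7, another MYST enzyme, ran from 585 to 670 in trained and from 655 to 794 in untrained libraries by value. Its log2 difference was -0.17 ± 0.04 (SE, adjusted p = 0.0147), and its trained libraries all lay below the untrained ones of their subregion. The coactivators Crebbp and Ep300 had log2 differences of -0.08 and -0.13 and did not pass (adjusted p = 0.368 and 0.0551).

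The members counted as methyltransferases that had a call all fell. Kmt2a, the MLL1 enzyme, had values of 2708 to 3814 in trained libraries (median 3315) and 3421 to 4101 in untrained ones (median 3875), a log2 difference of -0.22 ± 0.05 (SE, adjusted p = 0.00662). Setd2, which trimethylates lysine residues in transcribed gene bodies, had values of 1135 to 1468 in trained and 1398 to 1583 in untrained libraries, a log2 difference of -0.20 ± 0.05 (SE, adjusted p = 0.00821). Kmt2e, a KMT2 family protein, had a median value of 1363 in trained and 1631 in untrained libraries, with a log2 difference of -0.21 ± 0.05 (SE, adjusted p = 0.00947). Kmt5a (-0.17) and Kmt2c (-0.14) passed more narrowly, at adjusted p-values of 0.034 and 0.0366. In contrast, Kmt2d, the closest relative of Kmt2c, had a log2 difference of 0.17 (adjusted p = 0.0771), Kmt2b of 0.07 and Setd1a of -0.04, and none of these passed.

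The erasers included 3 of the 4 members that rose. Hdac5, a class IIa deacetylase that leaves the nucleus on neuronal activity, had values of 803 to 967 in trained libraries (median 852) and 612 to 838 in untrained ones (median 692). It had the smallest adjusted p-value of all members (0.000879), with a log2 difference of 0.34 ± 0.06 (SE). Within DG and CA3, every trained library lay above every untrained one, as for 17.5% of all genes in DG and 17.2% in CA3. Other deacetylases did not pass: the log2 difference was 0.16 for Hdac4, 0.21 for Hdac11, 0.06 for Hdac9, -0.02 for Hdac1, -0.08 for Hdac2 and 0.01 for Hdac3. Kdm2a, an F-box demethylase, fell from a median of 1205 to 1014 (log2 difference -0.20 ± 0.04 SE, adjusted p = 0.00421), with values of 962 to 1125 in trained and 1124 to 1252 in untrained libraries. Kdm7a, a PHF8-family demethylase, had a log2 difference of -0.17 ± 0.04 (SE, adjusted p = 0.0136). Kdm1a and Kdm6b, at -0.05 and -0.12, did not pass.

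The other 2 erasers that rose are X-linked. Kdm5c, a demethylase mutated in X-linked intellectual disability (chromosome X, 152233020 to 152274535, GRCm38), had values of 998 to 1216 in trained and 749 to 1100 in untrained libraries, with a log2 difference of 0.28 ± 0.06 (SE, adjusted p = 0.00223). Kdm6a, also called UTX (chromosome X, 18162575 to 18279936), had values of 390 to 458 in trained and 307 to 425 in untrained libraries, with a log2 difference of 0.29 ± 0.06 (SE, adjusted p = 0.00252). Both genes are known to escape X inactivation. The highest untrained library of each was CA3 untrained replicate 1, the untrained library with Xist at 10587, where Kdm5c was 1100 and Kdm6a 425. The lowest trained library of each was DG trained replicate 3, the library with the lowest trained Xist, where Kdm5c was 998 and Kdm6a 390. When this score of sex-linked transcripts was a term of the fit, the log2 differences were -0.016 for Kdm5c and -0.0021 for Kdm6a. The score goes with training, so the parts of sex-linked expression and training in these values cannot be told apart. The other X-linked members did not pass, with log2 differences of -0.01 for Hdac6, 0.15 for Hdac8 and -0.08 for Smarca1.

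**Figure D2:**
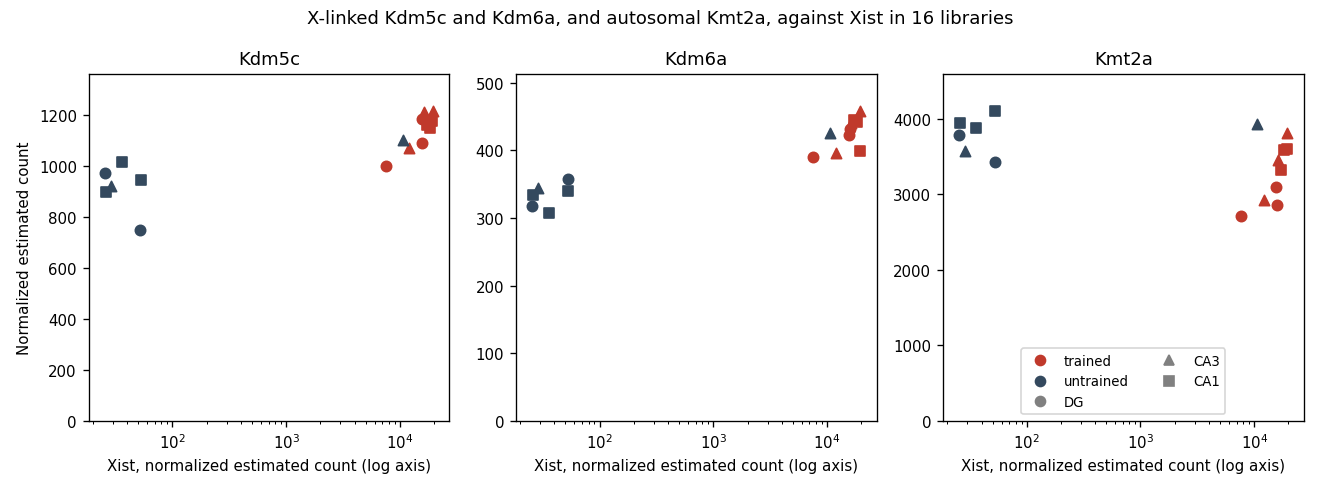
Normalized estimated counts of Kdm5c, Kdm6a and Kmt2a (y axes from 0) against Xist (x axis, log scale) in the 16 libraries; colour gives training and shape gives subregion. The untrained CA3 library with Xist at 10587 lies among the trained libraries for Kdm5c (1100) and Kdm6a (425), and at 3931 among the untrained ones for the autosomal Kmt2a. This rests on that library alone, and a cause was not tested.

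Among the remodelers, Chd5, a neuronal CHD protein of the NuRD type, rose and 3 members fell. Chd5 had values of 1710 to 2071 in trained libraries (median 1896) and 1408 to 1863 in untrained ones (median 1621). The log2 difference was 0.22 ± 0.05 (SE, adjusted p = 0.00426), and in each subregion the 3 trained libraries were the highest. Chd1, a CHD protein of actively transcribed genes, lay between 359 and 434 in trained and between 431 and 508 in untrained libraries, with a log2 difference of -0.22 ± 0.05 (SE, adjusted p = 0.00705). Chd7, the CHARGE syndrome gene, had a log2 difference of -0.25 ± 0.07 (SE, adjusted p = 0.0186). Arid5b, a DNA-binding partner of the demethylase PHF2, had the largest fall of the called members, from a median of 363 to 298 (-0.29 ± 0.07 SE, adjusted p = 0.0106). None of the 14 SMARC genes passed limma here, though 5 had an unadjusted p under 0.05 (as had 25.5% of all genes). Smarca2 (-0.10), Smarca4 (0.01), Smarcc1 (-0.14), Smarcc2 (-0.05), Smarcd3 (0.05), Arid1a (-0.08), Arid1b (0.09), Chd3 (-0.03) and Chd4 (0.01) all stayed within 0.15 of 0 on the log2 scale.

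These calls depend on how the animals are counted. The combined fit takes the 16 libraries as separate samples; with 1 mean per animal (3 against 3), no member and no other gene passed limma, and 26 members (30.2%) had an unadjusted p under 0.05, against 19.1% of all genes. Without untrained replicate 1, 4 members passed, all higher (Hdac5, Kdm5c, Kdm6a and Chd5), and none passed once the score of Xist and Y-linked transcripts was a term (18 unadjusted, or 20.9%, against 11.6% of all genes). With the trend of each library on transcript GC content and length removed, 5 members passed, all higher, against 4 higher and 12 lower without it.

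The comparison within DG gave the most members that fell. Of 86 tested, 13 passed the limma test and all 13 were lower in trained mice, against a background of 1.66% of 13935 genes lower and 1.74% higher (3.39% in all). Values were lower in trained DG for 64 members, with a median log2 difference of -0.10, against 0.00 for all genes. Writers stood at 25 of 26 lower (median -0.17), remodelers at 24 of 32 (median -0.17) and erasers at 15 of 28 (median -0.00). All trained libraries lay below all untrained ones for 35 members and above for 7, where the background was 18.2% and 17.5% of all genes.

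Of the writers in DG, 3 members counted as acetyltransferases and 2 counted as methyltransferases fell. Kat6b, the paralogue of Kat6a, had values of 1128, 1094 and 1169 in trained DG and 1445 and 1425 in untrained DG. Every trained library lay below, with a log2 difference of -0.34 ± 0.07 (SE, adjusted p = 0.0157). Kat6a had values of 1124, 1265 and 1204 against 1578 and 1387 (log2 difference -0.31 ± 0.08 SE, adjusted p = 0.0426). Crebbp, the CREB-binding acetyltransferase (chromosome 16, 4081328 to 4213997), had values of 2000, 2149 and 1971 in trained and 2393 and 2523 in untrained DG. Its log2 difference was -0.27 ± 0.07 (SE, adjusted p = 0.0347), and its paralogue Ep300 had -0.19 (adjusted p = 0.174). Kmt2e had values of 1286, 1350 and 1268 against 1754 and 1631, a log2 difference of -0.38 ± 0.07 (SE, adjusted p = 0.0101). Kmt2a had values of 2859, 3100 and 2708 against 3788 and 3421 (log2 difference -0.32 ± 0.07 SE, adjusted p = 0.0215). The 1 writer that was not lower was Setd4, at 0.02 on the log2 scale.

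Among the remodelers in DG, members of the ARID, CHD and SMARC series fell. Arid4a, a subunit of SIN3 deacetylase complexes, had values of 535, 503 and 549 in trained DG and 735 and 741 in untrained DG. This was the smallest adjusted p-value of any member in DG (0.00829), with a log2 difference of -0.48 ± 0.08 (SE). Arid5b had the largest fall, with values of 240, 260 and 267 against 408 and 374 (log2 difference -0.61 ± 0.11 SE, adjusted p = 0.00908). Smarcd1, an accessory subunit of SWI/SNF, had values of 640, 633 and 730 against 932 and 820 (log2 difference -0.39 ± 0.09 SE, adjusted p = 0.0263). Smarcc2, a core scaffold of that complex and paralogue of Smarcc1, had values of 2116, 2235 and 2224 against 2614 and 2665 (log2 difference -0.27 ± 0.06 SE, adjusted p = 0.0267). Trained and untrained values did not overlap for any of these 4 genes, which were named for their calls. In DG 18.2% of all genes were lower without overlap. The CHD genes Chd7 (-0.39), Chd9 (-0.29) and Chd6 (-0.27) also fell, at adjusted p-values of 0.0293, 0.0338 and 0.0461. The ATPases Smarca2 and Smarca4 had log2 differences of -0.23 and -0.16 (adjusted p = 0.0524 and 0.215).

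Erasers in DG were divided in direction. Kdm2a alone passed, with values of 986, 1028 and 962 in trained and 1205 and 1206 in untrained DG (log2 difference -0.28 ± 0.07 SE, adjusted p = 0.0422). Hdac5 had values of 844, 803 and 813 against 640 and 729, all trained libraries above, but its log2 difference of 0.26 had an adjusted p-value of 0.0886. Kdm5c (0.35) and Kdm6a (0.30) had adjusted p-values of 0.0893 and 0.114. Kdm4d, a low-value demethylase, had values of 11.97 to 14.97 in trained and 5.25 and 6.52 in untrained DG and did not pass.

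**Figure D3:**
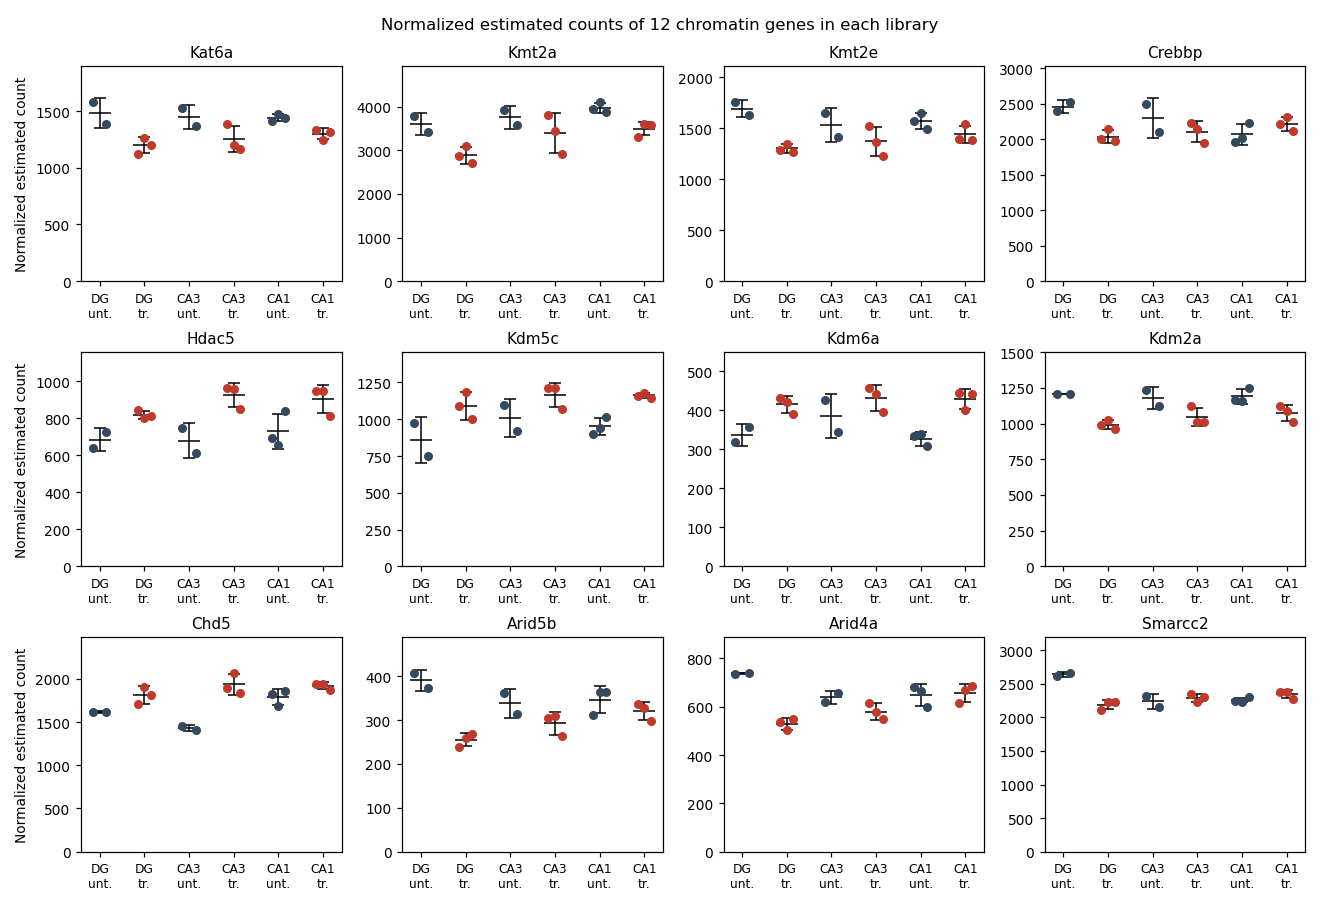
Normalized estimated counts (y axes from 0) of 12 members in every library, by subregion and training (x axis; unt., untrained; tr., trained); points are libraries, horizontal bars are means and whiskers are 1 SD (n = 3, or n = 2 in untrained CA3 and DG). Arid4a and Smarcc2 are separated by training in DG (Arid4a 503 to 549 against 735 and 741) and overlap in CA1, while Hdac5 has a higher mean in trained mice in all 3 subregions, with overlap in CA1 (815 to 949 against 658 to 838).

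The DG calls rest on few libraries: 0 members passed without trained replicate 2 (33 unadjusted, or 38.8%, against 15.4% of all genes), 1 without trained replicate 1 and 3 without trained replicate 3, the library with Ddx3y. Leaving out an untrained library, which leaves 1 that is assumed to vary like the trained ones, gave 9 and 19. In 1 fit of all libraries 10 passed, and with the score of sex-linked transcripts as a further term 3 did. All 8 DG granule markers were also lower in trained DG (2 called, median log2 difference -0.24), and their summed value was 13982 to 15166 in trained and 17426 and 17740 in untrained DG. All 5 endothelial markers were lower (1 called, median -0.44; summed value 442 to 495 against 658 and 847), 7 of 8 oligodendrocyte markers were lower (median -0.16) and 6 of 7 CA3 pyramidal markers higher (median 0.30), with 0 called in both; the part of cell composition in the members' differences was not tested.

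In CA1, 6 of 85 members passed the limma test, 4 higher and 2 lower, against a background of 5.23% of 13588 genes (3.53% higher, 1.7% lower). The directions were even, with 44 members lower and 41 higher and a median log2 difference of -0.01. Kmt2d, the MLL4 enzyme of enhancers (chromosome 15, 98831669 to 98871204), had values of 4471, 4883 and 4795 in trained CA1 and 3720, 3673 and 3938 in untrained CA1. The groups were well apart, with a log2 difference of 0.32 ± 0.05 (SE, adjusted p = 0.000482). Kdm6a had values of 445, 400 and 443 against 334, 340 and 307 (0.39 ± 0.09 SE, adjusted p = 0.0122). Kdm5c had values of 1161, 1176 and 1147 against 899, 943 and 1014 (0.29 ± 0.06 SE, adjusted p = 0.0102). Arid1b, the alternative to Arid1a in SWI/SNF, had values of 1883, 1941 and 1838 against 1655, 1560 and 1719 (0.20 ± 0.06 SE, adjusted p = 0.0434).

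The 2 members that fell in CA1 were Kmt2a and Kdm4c. Kmt2a had values of 3315, 3598 and 3582 in trained and 3946, 4101 and 3875 in untrained CA1 (log2 difference -0.18 ± 0.05 SE, adjusted p = 0.0315). Kdm4c, a JMJD2 demethylase, had values of 394, 380 and 367 against 471, 479 and 456 (-0.30 ± 0.08 SE, adjusted p = 0.0357). Kmt2a was the 1 member called in more than 1 subregion, lower in both DG and CA1. Crebbp in CA1 had a log2 difference of 0.10, and its values of 2123 to 2314 in trained and 1958 to 2236 in untrained libraries overlapped. Hdac5 came close, at 0.31 ± 0.09 (SE, adjusted p = 0.0521).

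Without trained replicate 1, trained replicate 2 or untrained replicate 1, 2 members passed in CA1, and without untrained replicate 2, 3 passed. With the replicate number as a block 3 passed, and in 1 fit of all libraries 4 did; with the sex-linked score as a further term 0 did (11 unadjusted, or 12.8%, against 8.37% of all genes), and the log2 difference turned to -0.027 for both Arid1b and Kdm5c. Trained CA1 also had lower CA1 markers (6 of 7 lower, 2 called, with Wfs1 at 472 to 681 against 746 to 1663) and higher CA3 markers (6 of 7 higher, 5 called). Of the 7 astrocyte markers 4 were lower (1 called) and 3 higher (0 called). Of the 3 erythroid markers tested 2 were higher and 1 lower (0 called, median 2.89). Their summed value was 324 to 517 in trained and 175 to 215 in untrained CA1. Immature neuron markers (3 of 4 lower, 2 called, median -0.39), leptomeningeal markers (4 of 4 lower, 1 called) and the 4 choroid plexus markers tested (all lower, 0 called, median -1.15) had lower values, as had all 8 oligodendrocyte markers (0 called, median -0.21). Of the 8 DG granule markers 7 had higher values (2 called), and the 1 with a lower value was called too. The summed choroid plexus value did not follow training in every library: it was 2383 in trained replicate 1, the highest of all 16, and 311 and 314 in the other trained libraries, against 1009 to 1166 in untrained CA1. The part of dissection and of these cells in the members' differences was not tested.

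In CA3, 1 of 85 members passed, against a background of 0.852% of 13848 genes. Chd5 had values of 1896, 2071 and 1841 in trained CA3 and 1458 and 1408 in untrained CA3. The log2 difference was 0.43 ± 0.08 (SE, adjusted p = 0.0344). Hdac5 had values of 967, 958 and 852 against 746 and 612, a log2 difference of 0.45 ± 0.10 (SE, adjusted p = 0.0688). Hdac11, the class IV deacetylase, had values of 743, 907 and 895 against 559 and 686 (0.45 ± 0.11 SE, adjusted p = 0.105). Neither deacetylase passed; every trained library lay above every untrained one in both, as for 17.2% of all genes in CA3. Values were lower in trained CA3 for 58 of 85 members, including all 10 acetyltransferases (log2 differences from -0.21 to -0.05), with a median over members of -0.07 against -0.01 over all genes. No member passed without trained replicate 2 (6 unadjusted, or 7.06%, against 9.29% of all genes), and 4 passed without trained replicate 1. The call also ended without robust estimation and with the GC and length trend removed, while more members passed with the replicate number as a block. Leaving out either untrained library leaves 1, assumed to vary like the trained ones; no member passed then (8 unadjusted, or 9.41%, against 8.61% of all genes without replicate 1, and 13, or 15.3%, against 15% without replicate 2). Markers of other cells moved with training in CA3. All 5 choroid plexus markers were lower in trained CA3 (2 called, median log2 difference -1.62), with a summed value of 240 to 321 in trained and 811 and 1116 in untrained libraries. The 8 DG granule markers were all lower (0 called, median -0.31), and the 8 oligodendrocyte markers (0 called, median 0.34) and 4 oligodendrocyte precursor markers (1 called, median 0.35) were all higher. Of the 7 GABAergic markers 6 were higher (1 called, median 0.21). All 4 immature neuron markers (median -0.46) and all 4 leptomeningeal markers (median -0.59) were lower, with 0 called in both. The part of these cells in the members' differences was not tested.

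Across the 3 subregions, 85 members were tested in each. Of these, 30 (35.3%) were lower in trained mice in all 3 and 8 (9.41%) were higher in all 3, against 19.7% and 20.1% of the 13398 genes tested in each; the subregions share the same animals. The 8 comprised 0 writers, 6 erasers and 2 remodelers, and the 30 comprised 12 writers, 7 erasers and 11 remodelers. Another 31 (36.5%) were higher in trained CA1 and lower in trained DG, and 11 (12.9%) had the opposite pattern, against 23.1% and 22.1% of all genes.

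Whether the effect of training itself differed between subregions was tested as an interaction in 1 fit of 6 groups. Between CA1 and DG, 3 of 86 members passed limma (3.49%), a share near the 2.75% of 14673 genes. Arid4a had a training difference of 0.02 in CA1 and -0.48 in DG on the log2 scale, and the difference of the effects was 0.50 ± 0.11 (SE, adjusted p = 0.0184). Its values of 617, 669 and 687 in trained CA1 overlapped with 682, 665 and 599 in untrained CA1. Smarcc2 had training differences of 0.06 in CA1 and -0.27 in DG, with a difference of effects of 0.33 ± 0.08 (SE, adjusted p = 0.0291). The pseudogene Smarca5-ps, also called, is given by its values alone, since it lay under the minimum value of 10 throughout trained CA1 and untrained DG and reached it in the groups set against them. It had values of 3.31 to 6.14 in trained and 10.8 to 21.2 in untrained CA1, and 6.87 to 15.1 in trained and 2.75 and 3.71 in untrained DG. Its parent Smarca5 had values of 712 to 896 in all libraries. Arid5b (0.50, adjusted p = 0.0601) and Crebbp (0.37, adjusted p = 0.0566) did not pass. Between CA3 and DG and between CA1 and CA3, 0 members passed limma, where 0.164% and 0.0273% of all genes did, with 16 members (18.6%) and 5 members (5.81%) at an unadjusted p under 0.05, against 11.7% and 6.71% of all genes. With the animal as a block 1 member passed between CA1 and DG, and leaving out any 1 animal gave 0 to 2, while 9 passed with no filter on low values and 19 with the GC and length trend removed. The number of genes listed at 0 moved with training in opposite directions in CA1 and DG, as given above, so that its part and the subregion's cannot be told apart.

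Between the subregions, taken over both training groups, few members were called, and few of all genes were. In CA1 against DG 5 of 86 passed limma, all higher in CA1, against a background of 4.05% of 14673 genes (2.14% higher in CA1). Markers of other cells differed too, and their part was not tested: all 5 endothelial markers (3 called, median log2 difference 0.55) and all 5 choroid plexus markers (0 called, 0.75) were higher in CA1, and all 7 CA3 pyramidal markers were lower (2 called, -0.34). Kdm7a ranged from 1786 to 2239 (median 1973) by value in CA1 and from 1611 to 1799 (median 1735) in DG, a log2 difference of 0.19 ± 0.05 (SE, adjusted p = 0.0255). Kmt2d ranged from 3673 to 4883 in CA1 and from 3297 to 3917 in DG (0.23 ± 0.06 SE, adjusted p = 0.0292). Chd2 (0.20), Kmt5b (0.20) and Kmt2a (0.21) passed at adjusted p-values of 0.0364, 0.0371 and 0.0392. Kmt5b alone had no overlap (2.47% of all genes had none), with values of 741 to 808 in CA1 and 611 to 731 in DG. Of the 16 methyltransferases 15, and of the 9 CHD genes all 9, had higher values in CA1 than in DG, with medians of 0.10 and 0.05 on the log2 scale. Of the members lower in CA1 than in DG, the 5 with the smallest adjusted p-values (limma) did not pass. They were Smarcb1 (-0.21, adjusted p = 0.0796), Hdac11 (-0.20, 0.138), Kat5 (-0.24, 0.181), Arid5a (-0.30, 0.183) and Kat2a (-0.17, 0.204).

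In CA3 against DG 0 members passed limma (11 unadjusted, or 12.8%, against 6.86% of all genes), where 0.00682% of all genes did. The smallest adjusted p-values belonged to Setd7 (0.13), Smarcd2 (0.26), Kmt2d (0.16), Hdac7 (0.29) and Kdm5c (0.17) on the higher side in log2 difference, and Smarcb1 (-0.18), Smarca1 (-0.15), Hdac11 (-0.16), Smarcc2 (-0.09) and Arid5a (-0.22) on the lower side. In CA1 against CA3 0 members passed (3 unadjusted, or 3.49%, against 10.2% of all genes), where 0.988% of all genes did. Chd5 (0.15), Chd3 (0.12), Kdm3a (0.15), Smarca1 (0.12) and Arid4a (0.10) were nearest on the higher side, and Kat5 (-0.20), Arid3b (-0.25), Kdm6a (-0.12), Kat2a (-0.09) and Smarcd2 (-0.11) on the lower side. The comparison of CA1 with DG gave 3 members with the animal as a block, and 0 without CA3 untrained replicate 1 and DG trained replicate 3 (14 unadjusted, or 16.3%, against 17.3% of all genes). It also gave 0 without trained replicate 2 (14 unadjusted; 15.1% of all genes) or without trained replicate 3 (12 unadjusted; 16.6% of all genes), and 1 or 2 without untrained replicate 1, 2 or 3.

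**Figure D4:**
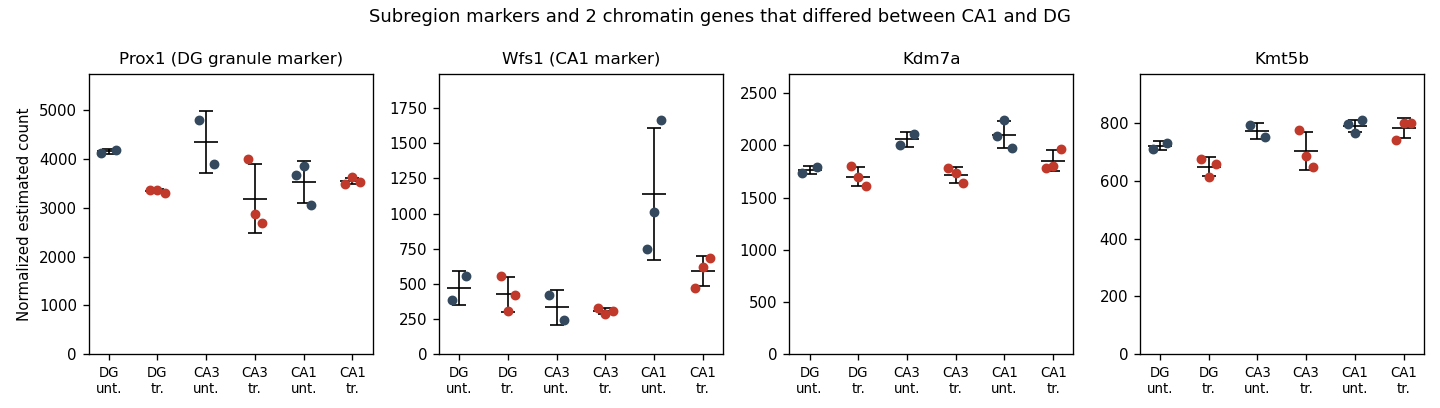
Normalized estimated counts (y axes from 0) of the DG granule marker Prox1, the CA1 marker Wfs1, and the members Kdm7a and Kmt5b in every library, by subregion and training (x axis); points are libraries, bars are means and whiskers are 1 SD. The Prox1 values of CA1 (3052 to 3861) and CA3 (2690 to 4786) overlap with those of DG (3292 to 4183), and Kmt5b lies at 741 to 808 in CA1 and 611 to 731 in DG.

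Base composition was described for the members that fell and rose, without a test. In the combined comparison the 12 called lower had a median transcript GC content of 48.5% and the 4 called higher of 55.6%, against 51.8% over the 86 tested members and 50.5% over all genes tested. Across members, the log2 difference and GC content had a Pearson correlation of 0.35 in the combined comparison (n = 86), 0.32 in CA1 and 0.50 in CA3 (n = 85 each) and -0.00 in DG (n = 86). Over all genes the same correlations were 0.18, 0.11, 0.24 and 0.04. These are correlations across genes of the same libraries, and genes are not independent replicates. The lowest GC content of the 4 called higher was 42.5%, in Kdm6a. After the GC and length trend of each library was removed, 17 members passed in DG, 0 in CA3 (8 unadjusted; 12.9% of all genes) and 0 in CA1 against DG (16 unadjusted; 18.3% of all genes).

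**Figure D5:**
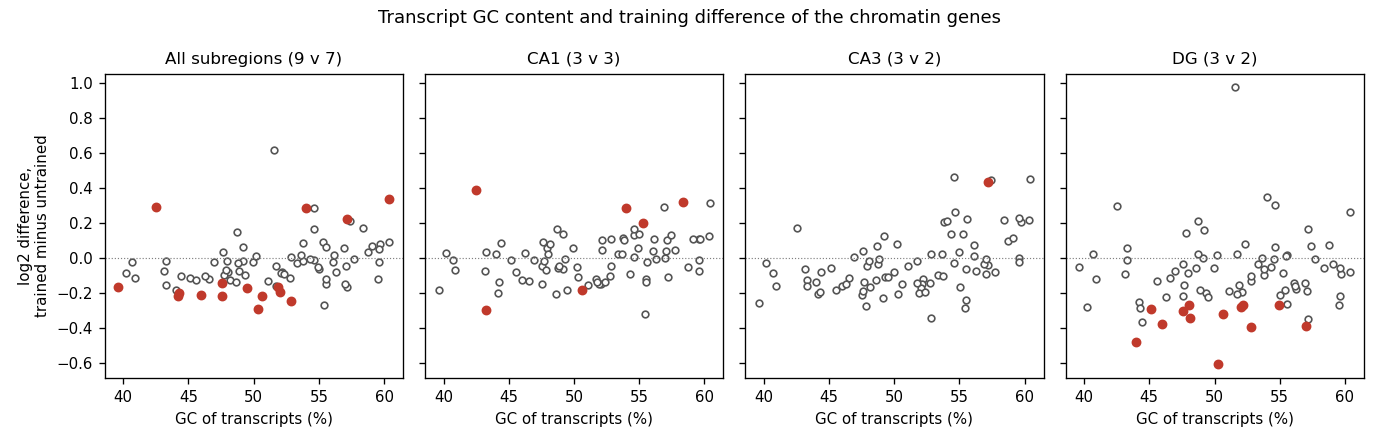
Log2 difference between trained and untrained mice (y axis) against the GC content of the transcripts (x axis, percent) for each tested member except Smarca5-ps; filled red points passed the limma test. The points rise with GC content in the combined comparison, CA1 and CA3 (Pearson r of 0.35, 0.32 and 0.50) but not in DG (-0.00).

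Other chromatin genes, listed for their known roles as complex partners, Polycomb proteins, readers and DNA methylation enzymes, were counted in the same fits. In the combined comparison 19 of 116 passed (16.4%), 2 higher and 17 lower, against 10.3% of all genes (6.28% higher, 4.06% lower). Cbx6, a Polycomb reader (0.21 ± 0.04 SE, adjusted p = 0.00138), and Ehmt2, the G9a methyltransferase (0.22 ± 0.05 SE, adjusted p = 0.00845), rose. Jmjd1c (-0.25 ± 0.05 SE, adjusted p = 0.0012) and the methylcytosine dioxygenases Tet2 (-0.24) and Tet1 (-0.29) fell. In DG 11 passed (9.48%), 1 higher and 10 lower, against 3.39% of all genes (1.74% higher, 1.66% lower). Of these genes 93 had lower values in trained DG (median log2 difference -0.13), as did 6952 of all 13935 genes. Bptf, the large subunit of NURF (-0.33 ± 0.06 SE, adjusted p = 0.0141), Jmjd1c (-0.31) and Ash1l, a KMT2-related methyltransferase (-0.27), fell, and the histone chaperone Rbbp4 rose (0.31, adjusted p = 0.0409). In CA1 5 passed, 3 higher and 2 lower, and this share of 4.31% was no larger than the 5.23% of all genes. Cbx6 (0.26) and the NuRD subunit Mta1 (0.37) were among those that rose, and Tet2 (-0.26) and the coactivator Ncoa3 (-0.30) fell. In CA3 0 passed limma, with 21 at an unadjusted p under 0.05 (18.1%, against 15.8% of all genes).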

How the data were processed

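Bulk RNA-seq of 16 libraries was analysed; spatial data were not analysed here. The authors trimmed reads with Trim Galore, aligned them with STAR to GRCm38 per the labels and quantified genes with Salmon. The deposited signal is a normalized estimated count per gene. Its normalization is not given in the sources used here, but median-of-ratios factors were equal in all libraries (1.01), and whole reads could not be recovered, so no depth or counting interval is given. Libraries were made after rRNA depletion, while the labels name polyA RNA.

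limma 3.58.1 (R 4.3.3) was used on log2(value + 2), a scale that understates changes of low genes, with trend and robust options and p-values adjusted by Benjamini-Hochberg over all genes that reached a value of 10 in 3 or more libraries (CA1) or 2 or more (elsewhere). A call is an adjusted p-value under 0.05. Subregion was a term of the combined fit. Subregion contrasts and interactions came from 1 fit of 6 groups. Nothing in the labels shows that replicates were independent beyond the animal numbers. The method was tested on simulated data.

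Members and lists were chosen with earlier results of these data known. Genes named are all called members (at most 10 for each comparison and direction), the 5 higher and 5 lower members with the smallest adjusted p in each subregion contrast, X-linked members, a list of members with known roles in neurons, and the 3 higher and 3 lower called partner genes. One gene that this rule names is not reported here. Setd4, Kdm4d and Smarca5 were added after their values were seen. Symbols of 98.0% of genes were found in GENCODE M21 (GRCm38), which gave positions, lengths and GC content; promoters came from RefSeq. Libraries of the same animal had correlations of -0.108 to 0.092 across genes in their deviations from group means. Those of different animals of the same training had -0.100 to 0.100. Deviations from a mean cancel within each small group, so these values cannot show how alike the libraries of an animal are. For the subregion contrasts, the labels give shared animals, so the animal was also fitted as a block. Alternatives were other rescalings, filters and pseudocounts, no robust estimation, removal of the GC and length trend, a replicate block, covariates, and each animal left out; the sex-linked covariate within a subregion was chosen after seeing the data.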

Additional observations from a re-analysis of the deposited data

Results flagged for a closer look

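The effect of training differed between CA1 and DG, by the interaction term of the limma fit, for 3 of 86 members, a share of 3.49% that is near the background of 2.75% of all genes tested. For Arid4a the difference of the effects (CA1 minus DG) was 0.50 on the log2 scale (adjusted p = 0.0184), and it passed in neither the fit without trained replicate 2, without untrained replicate 1 nor without untrained replicate 3. For Smarcc2 it was 0.33 (adjusted p = 0.0291), and leaving out any 1 animal ended the call. The third, the pseudogene Smarca5-ps, lay under the minimum value of 10 throughout trained CA1 and untrained DG, and nothing is read from its call. Groups of 2 or 3 libraries are too small for a test of outlying libraries.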

How the results depend on the processing

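Of 167 recomputed counts, 125 stayed within 1.5 times the reported one. In the combined comparison (16 members called) the count was 5 (5 higher) with the GC and length trend removed, 0 with the sex-linked score (18 unadjusted, limma; 11.6% of all genes), 25 with the number of genes at 0 as a covariate, 0 with the mean of each animal (26 unadjusted; 19.1%), and 4 to 19 when an animal was left out. In CA1 (6) it was 3 under the replicate block, 4 in 1 fit of all libraries, 0 with the sex-linked score in that fit (11 unadjusted; 8.37%) and 2 to 9 with an animal left out. In CA3 (1) it was 0 without robust estimation (11 unadjusted; 16% of all genes), 0 with the trend removed, 9 with the replicate block, 4 in 1 fit of all libraries, 3 with the sex-linked score in that fit and 0 to 4 with an animal left out. In DG (13) it was 10 in 1 fit of all libraries, 3 with the sex-linked score in that fit and 0 to 19 with an animal left out. In CA3 and DG, leaving out an untrained library leaves 1, assumed to vary like the trained ones, and in DG this gave 9 and 19. CA1 against DG (5) gave 2 with no filter, 0 with the trend removed, 3 with the animal as a block, 0 without CA3 untrained replicate 1 and DG trained replicate 3, and 0 to 5 with an animal left out. The interaction of CA1 and DG (3) gave 9 with no filter, 19 with the trend removed, 1 with the animal as a block, 1 without those 2 libraries, and 0 to 2 with an animal left out. The causes were not tested. With the sex-linked score the direction turned for Kdm5c (-0.016 combined, -0.027 in CA1), Kdm6a (-0.0021 combined) and Arid1b (-0.027 in CA1). Of the 762 recomputed values of called members, 529 kept their call, 229 lost it in the same direction and 4 turned. Trained and untrained mice share only a replicate number (correlations of -0.18 to 0.119 between same-numbered libraries), so the training comparisons with that block pair nothing. Low values and unknown depth limit Kdm4d, Smarca5-ps and Arid3c.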
